A study of Mus musculus with 22 samples.

Results

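In all, 6 genes of the orexin system were followed through the hypothalamus of mice that lack paternal Snord116: 4 genes of orexin neurons (Hcrt, Pdyn, Nptx2 and Lhx9) and both orexin receptors (Hcrtr1 and Hcrtr2). They were chosen by gene symbol among 41456 gene IDs, and all 6 were found. The study measured polyadenylated RNA in the hypothalamus of C57BL/6J mice and asked how loss of Snord116, a cluster of small nucleolar RNA genes of the Prader-Willi locus, and sleep deprivation change the transcriptome. PWScrm+/p− mice, called mutant here, carry the deletion on the paternal chromosome, and PWScrm+/p+ mice, called control, do not. The 22 libraries are 22 mice: 4 mutant and 4 control mice sampled at ZT6 that had been kept awake for the preceding 6 h (sleep deprivation, SD), 4 mutant and 4 control mice at ZT6 left to sleep, and 3 mutant and 3 control mice at ZT0, where ZT0 is lights on. The deletion is a germline one that every cell of a mutant mouse carries, and the labels give neither age nor sex.

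Orexins (hypocretins) are peptides cut from the product of Hcrt, which is made by a small group of neurons in the lateral hypothalamus that project through the brain and keep an animal awake, and in human narcolepsy these neurons are lost. Orexin neurons also make dynorphin, the opioid peptide encoded by Pdyn, and Nptx2, a secreted pentraxin that gathers AMPA receptors at synapses, and in human narcolepsy the transcripts of both genes are lost from the same cells. Lhx9 is a LIM homeodomain transcription factor of developing and adult orexin neurons. Hcrtr1 and Hcrtr2 encode receptors coupled to the Gq family of G proteins and are made by the target cells, among them histamine and monoamine neurons. Only Hcrt is restricted to orexin neurons: Pdyn, Nptx2 and Lhx9 are made by other hypothalamic neurons too.

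The promoters of Hcrt and Pmch are shown because the levels of these 2 genes went together across libraries, and that of Pdyn because its level did not go with that of Hcrt. Pmch encodes melanin-concentrating hormone, the peptide of another neuron group that lies among the orexin neurons. Each line gives the 250 bases before a RefSeq start of the gene, the first of 2 listed for Pdyn, 5′ to 3′ on the gene's own strand, build GRCm38.p6, with capitals for the motifs found. The Hcrt stretch is chr11:100762932-100763181 (minus strand), the Pmch stretch chr10:88090822-88091071 (plus strand) and the Pdyn stretch chr2:129699939-129700188 (minus strand).
Hcrt: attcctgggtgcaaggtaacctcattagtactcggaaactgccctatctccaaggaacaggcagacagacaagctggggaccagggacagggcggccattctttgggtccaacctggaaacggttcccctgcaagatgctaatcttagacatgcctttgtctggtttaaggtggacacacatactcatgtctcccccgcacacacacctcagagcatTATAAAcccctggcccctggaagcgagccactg
Pmch: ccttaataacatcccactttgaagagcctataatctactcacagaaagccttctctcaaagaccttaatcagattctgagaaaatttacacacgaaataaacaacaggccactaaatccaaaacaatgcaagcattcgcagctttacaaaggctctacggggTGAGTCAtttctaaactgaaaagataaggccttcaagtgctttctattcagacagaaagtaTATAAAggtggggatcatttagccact
Pdyn: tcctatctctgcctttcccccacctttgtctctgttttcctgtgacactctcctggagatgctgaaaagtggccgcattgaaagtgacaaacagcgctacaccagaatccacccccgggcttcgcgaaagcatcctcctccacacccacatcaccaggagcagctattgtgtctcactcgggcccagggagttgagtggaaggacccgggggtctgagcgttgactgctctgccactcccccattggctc
Both strands of these stretches were searched for 6 motifs. The TATA box, TATAAA, starts 33 bases before the start of Hcrt and 27 bases before that of Pmch, and it occurs in 12.4% of 32851 RefSeq promoter stretches of this length. Pmch also holds the AP-1 motif TGANTCA, 88 bases before its start, which is present in 6.75% of promoters. The homeodomain motif TAATTA (4.84% of promoters), the E-box CACGTG (6.02%), the forkhead motif TGTTTAC (3.17%) and the cAMP response element TGACGTCA (1.55%) were in none of the stretches of Hcrt, Pmch, Pdyn, Lhx9, Hcrtr1 and Hcrtr2, and Pdyn, Lhx9, Hcrtr1 and Hcrtr2 held none of the 6. Nptx2 is named only. No motif was shared between members. The stretches shown were chosen by levels seen in these same libraries, and a link between motifs and levels was not tested.

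Not all libraries held neuron transcripts at a like level, and the source of the difference was not tested. In 4 of them, all 3 from mutant mice at ZT0 and mutant ZT6 replicate 3, the 7 neuron genes (Snap25, Gad1, Gad2 and others) summed to 3.45 to 22.7 CPM (counts scaled to a common library total), against 2120 to 3581 in the 17 libraries described next, and the 5 fibroblast genes to 7689 to 22190, against 25.9 to 291 CPM. Mutant ZT6 replicate 2 holds 7348 counts in all. These 5 libraries are therefore kept apart, and the comparisons below rest on 17 libraries, 4 mutant SD, 4 control SD, 2 mutant ZT6, 4 control ZT6 and 3 control ZT0, with 14.61M to 46.97M counts each. The deleted genes gave 0 counts over 17 Snord116 IDs in all 11 mutant libraries, and 0 to 1561 in the control libraries, above 0 in 8 of 11. Pituitary hormone genes, 8 in the list, summed to 24860 and 1234 TMM-scaled CPM in mutant SD replicates 1 and 4 and to 1804 in control ZT6 replicate 1, against at most 121 in the other libraries of the 17. The numbers after the letter S in the sample titles run from 1 to 18 and from 43 to 46, and they are called index numbers here. What they stand for is not said, so the gap between 18 and 43 was treated as a possible technical batch. The stretches 1 to 18 and 43 to 46 are called index runs, which names the numbers and no known sequencing run.

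Levels below are CPM scaled by TMM, edgeR's correction for library composition, and the order of the genes is given per kilobase of the longest transcript. The 6 genes spanned a wide range. The median of the 17 libraries was 100 CPM per kilobase for Hcrt, 30.3 for Pdyn, 11.6 for Nptx2, 2.79 for Hcrtr2, 2.23 for Hcrtr1 and 0.725 for Lhx9, against 919 for Pmch. Neighbours in this order overlapped in range for Hcrt (29.7 to 318) and Pdyn (19.7 to 40.6), for Hcrtr2 (1.92 to 4.70) and Hcrtr1 (1.25 to 4.23), and for Hcrtr1 and Lhx9 (0.327 to 1.53 CPM per kilobase). Pdyn and Nptx2 (7.18 to 18.3) did not overlap, nor did Nptx2 and Hcrtr2.

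Hcrt (chromosome 11, 100761069 to 100762931, minus strand, GRCm38, 2 exons) varied more than any other member. It stood at 17.4, 127, 186 and 80.4 TMM-scaled CPM in the 4 mutant SD libraries and at 47.8, 33.5, 138 and 47.5 in the 4 control SD libraries. The range of the mutant group enclosed that of the control group. At ZT6 it stood at 164 and 91.1 TMM-scaled CPM in the 2 mutant libraries and at 23.8, 54.6, 58.7 and 58.8 in the 4 control libraries. Both mutant libraries were above all 4 controls, but the share of all genes that separate these groups was not counted. Here and for the members below, groups without overlap are given as description only. The 3 control ZT0 libraries had 25.7, 133 and 28.0 TMM-scaled CPM, of which the second stood far above the others. Over the 17 libraries the highest level was 10.7 times the lowest, while the counts behind them, 660 to 5491, left little counting error. The largest ratio within 1 group, also 10.7, was that of the mutant SD mice. In whole-tissue RNA, fewer orexin neurons in the piece and less Hcrt RNA per neuron cannot be told apart.

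Pdyn (chromosome 2, 129686565 to 129699844, minus strand, 4 exons) varied less than Hcrt, and its highest level of the 17 libraries was 2.06 times the lowest. Its levels were 82.7, 70.7, 72.2 and 55.2 TMM-scaled CPM in mutant SD libraries and 96.0, 90.8, 80.9 and 47.0 in control SD libraries. The mutant ZT6 libraries had 90.7 and 48.5, the control ZT6 libraries 96.9, 86.8, 67.6 and 51.8, and the control ZT0 libraries 94.5, 69.6 and 59.2 TMM-scaled CPM. All groups overlapped, and the lowest library of each ZT6 and SD group was the one with an index number from 43 to 46.

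Nptx2 (chromosome 5, 144545902 to 144557478, plus strand, 5 exons) stood at 26.3, 18.8, 29.5 and 31.5 TMM-scaled CPM in mutant SD libraries and at 41.6, 40.2, 32.2 and 46.3 in control SD libraries, with no overlap. The mutant ZT6 libraries had 24.5 and 30.6, the control ZT6 libraries 36.5, 24.9, 20.4 and 34.3, and the control ZT0 libraries 28.6, 27.7 and 18.2 TMM-scaled CPM. The ZT6 groups overlapped with each other and with control ZT0. The control SD range also lay above those of mutant ZT6 and control ZT0, and overlapped that of control ZT6. The share of all genes that separate such groups was not counted.

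Lhx9 (chromosome 1, 138825186 to 138848577, minus strand, 5 exons) was the lowest member. It stood at 5.91, 5.82, 4.08 and 1.96 TMM-scaled CPM in mutant SD libraries and at 1.61, 1.77, 7.58 and 3.58 in control SD libraries. The mutant ZT6 libraries had 3.96 and 6.42, above the control ZT6 libraries with 1.75, 2.84, 3.69 and 2.65 TMM-scaled CPM, and the control ZT0 libraries had 3.21, 4.34 and 3.04. The SD groups overlapped, and the ZT6 groups did not, where the share of all genes that separate them was not counted. Between 35 and 224 counts lay behind each value.

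Of the receptors, Hcrtr1 (chromosome 4, 130130217 to 130139359, minus strand, 9 exons) stood at 5.75, 5.69, 5.29 and 4.66 TMM-scaled CPM in mutant SD libraries and at 10.3, 7.06, 4.98 and 4.08 in control SD libraries, and at 3.93 and 4.33 in mutant ZT6 libraries and 7.57, 6.14, 3.05 and 5.43 in control ZT6 libraries. Control ZT0 libraries had 6.35, 6.83 and 3.70, and all these groups overlapped except mutant SD and mutant ZT6. The share of all genes that separate those was not counted. Hcrtr2 (chromosome 9, 76225880 to 76323856, minus strand, 8 exons) stood at 9.52, 13.4, 11.8 and 10.3 TMM-scaled CPM in mutant SD libraries and at 9.76, 13.9, 10.5 and 13.1 in control SD libraries, and at 11.1 and 10.03 in mutant ZT6 libraries and 7.92, 7.23, 11.1 and 9.75 in control ZT6 libraries. Control ZT0 libraries had 11.7, 10.4 and 17.7. The control ZT6 range reached below all other groups, and every pair of groups overlapped. Gm27234 overlaps the Hcrtr2 locus on the other strand, and the labels do not say that the libraries or the counting kept the strand. Whether exons of these genes overlap was not looked at, so it is not known whether they share reads.

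**Figure D1:**
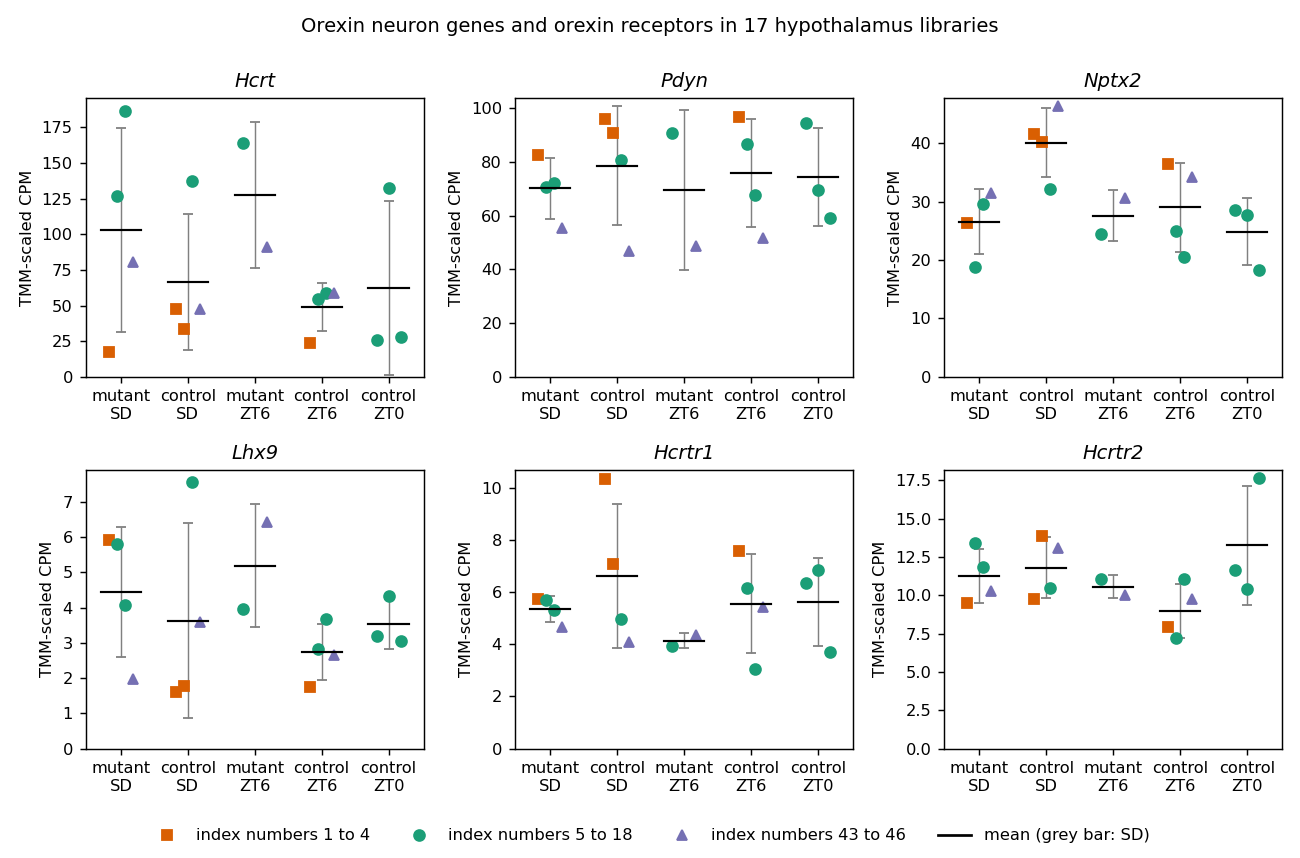
Level of each of the 6 genes (TMM-scaled CPM, linear axes from 0) in the 17 libraries, 1 point a library, by group, with the group mean as a black line and the SD as a grey bar. Marker shapes give the index numbers. Hcrt runs from 17.4 to 186, while Pdyn stays between 47.0 and 96.9 with the 4 libraries of index numbers 43 to 46 lowest.

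Spread within groups put Hcrt apart from the other 5 genes. The SD of log2 levels around the group means was 1.08 for Hcrt, larger than that of 95.8% of the 16749 genes with a mean of at least 1 CPM, whose median was 0.364. Lhx9 followed with 0.606, above 86.1% of genes. The spread was 0.402 for Pdyn and 0.419 for Hcrtr1, above 59.3% and 62.9% of genes. It was 0.317 for Nptx2 and 0.261 for Hcrtr2, above 36.8% and 21.2% of genes. Pmch and Nts, which encodes neurotensin, another peptide of lateral hypothalamic neurons, had 0.686 and 0.688.

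No member was called in any comparison among the 17 libraries. The first question is whether sleep deprivation changed the 6 genes in either genotype. Of 21346 genes tested with edgeR's quasi-likelihood test, 0 passed an adjusted p under 0.05 (0% called) both in mutant SD against mutant ZT6 and in control SD against control ZT6, while before adjustment 461 and 1318 genes stood under 0.05, and 17 and 18 genes were called by DESeq2. Hcrt differed by −0.31 ± 0.78 (log2 fold change ± SE) in mutant mice and by 0.44 ± 0.65 in control mice. Nptx2 averaged 40.1 ± 5.86 TMM-scaled CPM in control SD libraries and 29.0 ± 7.62 in control ZT6 libraries (SD, n = 4 each), a difference of 0.47 ± 0.22 on the log2 scale with an edgeR p of 0.0541 before and 0.824 after adjustment. In mutant mice the Nptx2 difference was −0.05 ± 0.27. The test of the difference between the genotypes' responses gave −0.52 ± 0.35 for Nptx2 and −0.76 ± 1.01 for Hcrt, and there too 0 genes were called (0%), with 530 under 0.05 before adjustment and 8 called by DESeq2.

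Between genotypes, the mean of Hcrt was higher in mutant libraries in each state, by amounts that did not pass the test. It averaged 103 ± 71.5 TMM-scaled CPM in mutant SD libraries and 66.6 ± 47.8 in control SD libraries (SD, n = 4 each), and 127 ± 51.3 in mutant ZT6 libraries (SD, n = 2) and 49.0 ± 16.9 in control ZT6 libraries (SD, n = 4). The difference was 0.63 ± 0.65 after SD, 1.38 ± 0.76 at ZT6 and 1.00 ± 0.50 on the log2 scale for the mean of both states. With the 3 sets of index numbers (1 to 4, 5 to 18 and 43 to 46), chosen after the values were seen, as terms, it was −0.015 after SD, 1.08 at ZT6 and 0.53 for the mean. Without those terms, the last has a 95% normal interval of 0.02 to 1.99 and an edgeR p of 0.0633 before and 0.942 after adjustment over all genes. Nptx2 in mutant against control libraries differed by −0.59 ± 0.22 after SD, unadjusted p = 0.0173 and adjusted p = 0.999 in edgeR, and by −0.08 ± 0.27 at ZT6, with mutant libraries below control libraries in the mean. Lhx9 differed by 0.30 ± 0.46 after SD and by 0.93 ± 0.55 at ZT6, Hcrtr1 by −0.31 ± 0.32 and −0.43 ± 0.40, and Pdyn and Hcrtr2 by at most 0.23 in size. edgeR called 0 of 21346 genes (0%) after SD, at ZT6 and for their mean, with 631, 566 and 768 genes under 0.05 before adjustment, while 1, 15 and 5 genes were called by DESeq2, none of them a member. The 2 mutant ZT6 libraries limit the ZT6 comparison: leaving out mutant ZT6 replicate 1 changed the sign of the SD effect on Hcrt in mutant mice to 0.20.

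Between times of day, only control mice could be compared in the 17 libraries. Hcrtr2 averaged 8.99 ± 1.75 TMM-scaled CPM in control ZT6 libraries (SD, n = 4) and 13.3 ± 3.87 in control ZT0 libraries (SD, n = 3), a difference of −0.56 ± 0.23 on the log2 scale. Its edgeR p was 0.0249 before and 0.96 after adjustment. Leaving out control ZT0 replicate 3, which had the highest Hcrtr2 level of all libraries, made the difference −0.30. Hcrt differed by −0.35 ± 0.70, and without control ZT0 replicate 2, the library at 133 CPM, by 0.85. Of all genes edgeR called 0 (0%), with 694 under 0.05 before adjustment, and 23 were called by DESeq2.

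**Figure D2:**
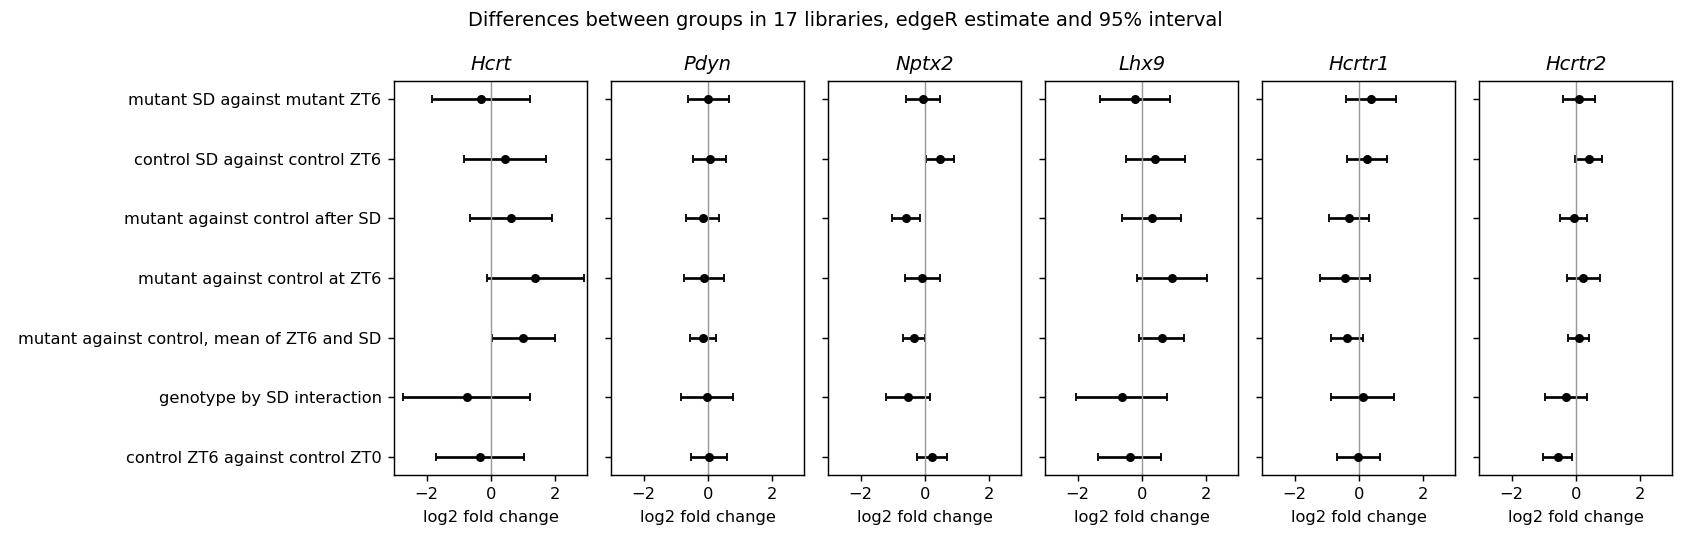
Log2 fold change of each gene in the 7 comparisons among 17 libraries (point) with its 95% interval (bar). Hcrt has the widest bars, and the bars of Nptx2 in control SD against control ZT6 and in mutant against control after SD, of Hcrtr2 in control ZT6 against control ZT0, and of Hcrt for the mean genotype difference leave out 0, while the edgeR p before adjustment was 0.0541, 0.0173, 0.0249 and 0.0633 in this order.

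The central question was whether the variation of Hcrt follows the genes that orexin neurons express with it. Across the 17 libraries Hcrt did not follow Pdyn or Nptx2, nor the receptors, to a degree these libraries could show. Pdyn and Nptx2 are made by other neurons too, and the receptors by target cells. Their whole-tissue levels therefore do not show orexin neurons alone. On log2(CPM + 0.5), Pearson's r with Hcrt was −0.20 for Pdyn (permutation p = 0.431; Spearman's rho −0.29, p = 0.258), −0.15 for Nptx2 (p = 0.562; rho −0.16, p = 0.526), −0.23 for Hcrtr1 (p = 0.377; rho −0.33, p = 0.201) and 0.03 for Hcrtr2 (permutation p = 0.925; rho 0.14, p = 0.579). The 2 libraries farthest from the median of Hcrt were mutant SD replicates 1 and 3, and without them these r were −0.18, −0.24, −0.24 and −0.10. With the means of the 5 groups subtracted they were −0.15, −0.19, −0.14 and 0.01. With the means of the 3 sets of index numbers subtracted, chosen after the values were seen, they were 0.12, 0.29, 0.24 and −0.15. Each sign was thus reversed, so the signs are not stable. With nothing subtracted, their percentiles among the r of 16748 genes with Hcrt were 30.7, 37.0, 27.7 and 58.6, with a median r of −0.05 over all genes. The Pdyn and Hcrt levels can be set side by side: control ZT6 replicate 1 had 96.9 CPM of Pdyn and 23.8 of Hcrt, and mutant ZT6 replicate 1 had 90.7 of Pdyn and 164 of Hcrt.

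Lhx9 did not pass the test with Hcrt either, though its coefficient was the highest of the 5 members. Its r was 0.42 (permutation p = 0.0904; rho 0.47, p = 0.0578), higher than that of 92.4% of genes, and 0.30 with group means subtracted. Without the 2 farthest libraries it was 0.67 (permutation p = 0.00775), and leaving out mutant SD replicate 1 alone gave 0.65. That library had the lowest Hcrt of all, 17.4, beside 5.91 CPM of Lhx9, and it also had 83.6 TMM-scaled CPM over the 6 thalamus and habenula markers, where the 17 libraries ran from 40.8 to 84.4, and the highest pituitary sum. Control SD replicate 3 had the highest Lhx9, 7.58, and 138 CPM of Hcrt, and without it r was 0.34. The 3 control libraries with index numbers 1 to 4 had Lhx9 of 1.61 to 1.77 and Hcrt of 23.8 to 47.8. With the means of the 3 sets of index numbers subtracted, r was 0.20 (permutation p = 0.386). The adjusted p over all genes was 0.526.

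**Figure D3:**
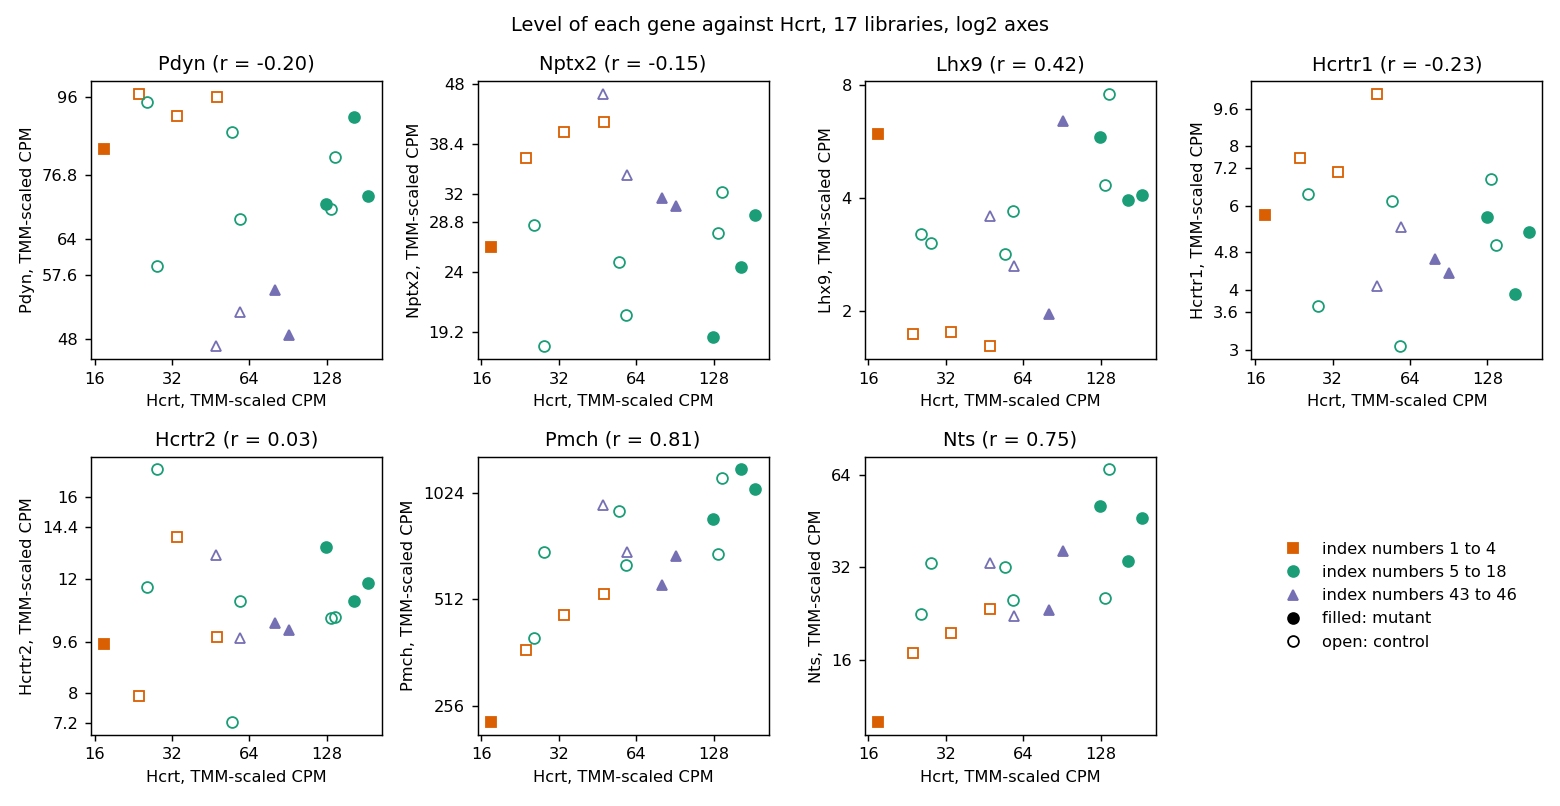
Level of 7 genes against Hcrt in the 17 libraries, 1 point a library, TMM-scaled CPM on log2 axes, with filled markers for mutant and open ones for control mice and shapes for the index numbers. Pdyn, Nptx2, Hcrtr1 and Hcrtr2 have r between −0.23 and 0.03, Lhx9 has 0.42, Nts 0.75 and Pmch 0.81.

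Among the list genes, Pmch, a gene of other neurons, had the highest Pearson's r with Hcrt, with the GABA enzyme genes Gad2 and Gad1 close to it. Pmch (chromosome 10, 88091072 to 88092375, plus strand, overlapped by Parpbp on the other strand) had 230, 862, 1047 and 561 TMM-scaled CPM in mutant SD libraries and 528, 461, 1123 and 944 in control SD libraries. It had 1191 and 677 in mutant ZT6 libraries, 369, 911, 639 and 694 in control ZT6 libraries, and 397, 688 and 696 in control ZT0 libraries. The library lowest in Hcrt, mutant SD replicate 1, was also lowest in Pmch, and the 3 libraries highest in Pmch, mutant ZT6 replicate 1, control SD replicate 3 and mutant SD replicate 3, were the 3 highest in Hcrt. Pearson's r was 0.81 (permutation p = 5e-05; rho 0.73, p = 0.00128), 0.73 without the 2 farthest libraries, 0.85 with group means subtracted and 0.67 with the means of the 3 index sets subtracted. Only 1 of 16748 genes had a higher r. Without the 3 libraries with pituitary transcripts r was 0.73 for Pmch (permutation p = 0.00345) and 0.64 for Nts (permutation p = 0.0137). Nts had r = 0.75 (permutation p = 0.00033; rho 0.74, p = 0.00095), 0.63 without the 2 farthest libraries and 0.58 with index set means subtracted. Within index numbers 5 to 18 alone, 9 libraries, r was 0.77 for Pmch (permutation p = 0.0113) and 0.57 for Nts (permutation p = 0.109).

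These coefficients were read against all genes. Of 116 genes of the lists and members set against Hcrt, 20 had a permutation p under 0.05, and over all 16748 genes 1795 had one, 10.7%. After Benjamini-Hochberg adjustment over all 16748 genes, 0 genes passed 0.05 with Hcrt (0% called, smallest adjusted p 0.1), 0 with Lhx9 and 0 with Hcrtr2 (0% each, with 1756 and 1848 genes under 0.05 before adjustment), while Pdyn, which differed between index runs, had 1873 such genes (11.2%), Nptx2 1998 (11.9%) and Hcrtr1 1003 (5.99%). The adjusted p was 0.12 for Pmch and 0.234 for Nts. Besides the peptides, Hcrt was most positively correlated among the lists with Gad2 (r = 0.80) and Gad1 (0.79) and with the synaptic gene Snap25 (0.67), and most negatively with the pituitary genes Cga (−0.75), the subunit shared by glycoprotein hormones, and Pomc (−0.71), which arcuate neurons make too. Their adjusted p over all genes were 0.177, 0.177, 0.309, 0.177 and 0.177. By other measures the GABA enzyme genes stood above Pmch: Spearman's rho with Hcrt was 0.79 for Gad2 (permutation p = 0.00033) and 0.77 for Gad1 (permutation p = 0.00046), Pearson's r without the 2 farthest libraries was 0.85 and 0.81, and with the means of the 3 index sets subtracted it was 0.70 and 0.75. Slc32a1, the vesicular GABA transporter, had r = 0.29 (permutation p = 0.255) and 0.79 with those means subtracted. Of the 6 other genes taken as co-expressed in orexin neurons (Slc17a6, Pcsk1, Scg2, Igfbp3, Plagl1 and Qrfp), 1 had a permutation p under 0.05, Igfbp3 with r = −0.54. The summed neuron genes were lowest, at 2160 TMM-scaled CPM, in mutant SD replicate 1, the library lowest in Hcrt, and stood at 3201 in mutant SD replicate 3, the library highest in Hcrt, where the highest sum of the 17 was 3646 in control SD replicate 3. As ratios to that sum, r with Hcrt was 0.68 for Pmch and 0.60 for Nts. Neither the pituitary transcripts nor the neuron content was tested as a source of the differences in Hcrt.

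**Figure D4:**
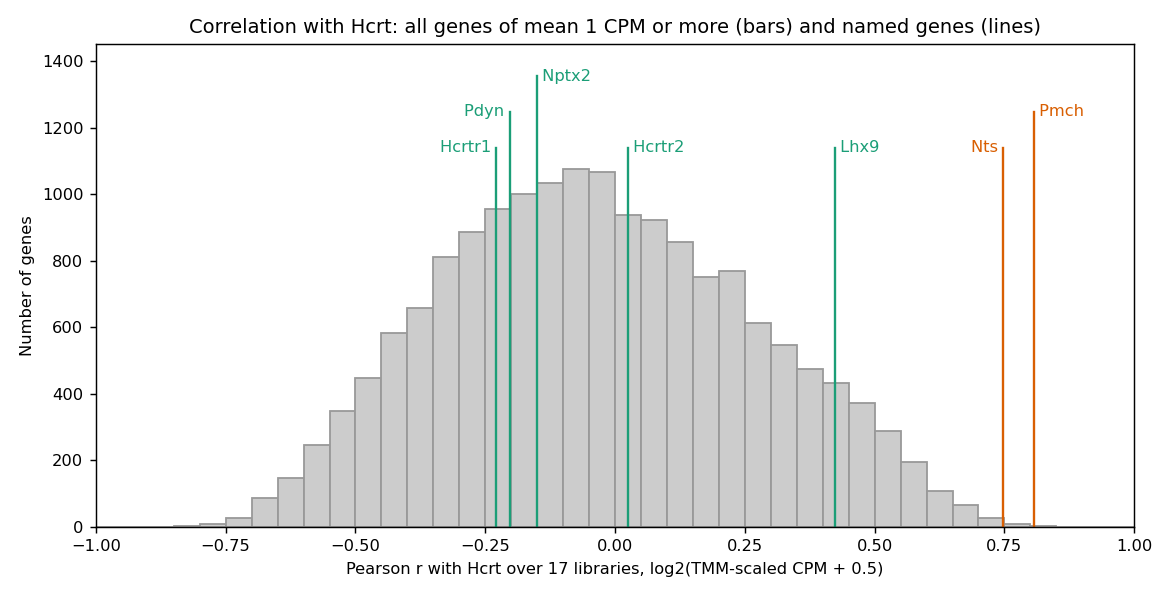
Pearson's r with Hcrt over 17 libraries for 16748 genes (bars, number of genes per r interval), with lines for the other 5 members (green) and for Pmch and Nts (orange). Hcrtr1, Pdyn, Nptx2 and Hcrtr2 lie in the body of the distribution, Lhx9 lies at its right flank at 0.42, and Nts and Pmch lie at its right end.

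Slopes were also fitted in a count model with group and log2 Hcrt as terms. A doubling of Hcrt went with a log2 change of 0.54 ± 0.11 in Pmch, 0.53 ± 0.12 in Nts, 0.18 ± 0.16 in Lhx9, −0.07 ± 0.10 in Pdyn, −0.05 ± 0.09 in Nptx2, −0.06 ± 0.12 in Hcrtr1 and 0.00 ± 0.09 in Hcrtr2. With edgeR's adjustment over 21345 genes, 1 gene rose with Hcrt (0.00468% called) and 10 fell (0.0468%), and no member was among them. The adjusted p was 0.098 for Pmch and 0.206 for Nts. The genes called at a mean of at least 1 CPM were Gm26822, which rose, and Lhb, Cga, Fshb, Pitx1, Cldn9 and Gm9843, which fell. Lhb, Cga and Fshb encode subunits of pituitary hormones and Pitx1 a pituitary transcription factor. Without the 3 libraries with pituitary transcripts 0 genes were called, and Pmch had a slope of 0.37 and Lhx9 of 0.47. Leaving out control ZT0 replicate 2, which had 133 CPM of Hcrt beside 688 of Pmch, raised the number of genes called to 252, among them Pmch with a slope of 0.67 (adjusted p = 0.0178) and Nts with 0.70 (adjusted p = 0.0122). Leaving out mutant SD replicate 1 brought it to 0, without control ZT6 replicate 1 or mutant SD replicate 3 it was 1, without mutant SD replicate 2 it was 2, without control SD replicate 1 or 3 it was 3, and without control SD replicate 2 it was 5. Without control ZT6 replicate 3 the number was 7, without mutant ZT6 replicate 1 it was 17, and without control ZT0 replicate 3 it was 19.

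A permutation p under 0.05 before adjustment was common over all 16748 genes: 26.9% had one with Pdyn, 24.4% with Hcrtr1 and 32.5% with Nptx2. On its own, such a p therefore does not set a pair of these members apart from other genes. Among themselves the members formed 15 pairs, of which 1 had a permutation p under 0.05 before adjustment. That pair was Pdyn and Hcrtr1, with r = 0.58 (permutation p = 0.0135; rho 0.68) and 0.58 with group means subtracted, and an adjusted p over all genes of 0.083. Without the 2 libraries farthest in Pdyn r was 0.53, with the means of the index runs (1 to 18 and 43 to 46) subtracted it was 0.62 (permutation p = 0.0162), and with those of the 3 index sets 0.44 (permutation p = 0.138). Hcrtr1, like Pdyn, had its highest median, 7.32 TMM-scaled CPM, in index numbers 1 to 4 and its lowest, 4.49, in 43 to 46. The receptors did not vary together: r between Hcrtr1 and Hcrtr2 was −0.38 (permutation p = 0.131), and −0.64 with group means subtracted (permutation p = 0.0323). Nptx2 had r = 0.47 with Hcrtr1 (permutation p = 0.0555), and 0.68 with index run means subtracted (permutation p = 0.00542). With Pdyn, its partner in orexin neurons, Nptx2 had r = 0.00 (permutation p = 0.998), but 0.63 with index run means subtracted (permutation p = 0.0123) and 0.44 with index set means subtracted (permutation p = 0.0994). These adjusted coefficients were computed after seeing the data.

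The genes most like each member were found after subtracting group means, over the 17 libraries. For Hcrt they were Gm26822 (r = 0.88), Htr1a (0.86), the serotonin receptor 1A gene, BC035947 (0.86), Pmch (0.85) and Ttc19 (0.84). For Lhx9 they were Apold1 (0.89), Crh (0.87), which encodes corticotropin-releasing hormone, 1810024B03Rik (0.83), Susd1 (0.82) and Tcf7l2 (0.81), which is one of the thalamus and habenula markers. Pdyn was most like Hpcal4 (0.96), Mfsd11, Wdr45b, Tef, a transcription factor with a daily rhythm, and Derl1 (0.95). Nptx2 was most like Gpr137 (0.94), Aplp1, Ptprn, Gas6 and Chst1 (0.91), Hcrtr1 like Chchd10 (0.94), Rnf114, Cops7a, Lgi4 and Rtl8c (0.91), and Hcrtr2 like Pcdhb22 (0.91), Kcnv1, Radx, Fcho2 and Dgkb (0.84). No member was among the nearest genes of another.

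Pdyn differed between the index runs, and what the index numbers stand for is not known. The 4 libraries with index numbers 43 to 46, 2 mutant and 2 control, had 47.0 to 55.2 TMM-scaled CPM of Pdyn, below all 13 others with 59.2 to 96.9, a difference of −0.72 ± 0.14 on the log2 scale with group in the model (edgeR adjusted p = 0.00355). Between these index runs 14.1% of genes were called, 1828 higher and 1172 lower. The call of Pdyn therefore does not set the members apart from genes at large. No other member passed, with Nptx2 at 0.32 ± 0.17 and Hcrt at −0.32 ± 0.57. Hcrt ran from 17.4 to 47.8 CPM in the 4 libraries of index numbers 1 to 4, from 25.7 to 186 in the 9 of 5 to 18 and from 47.5 to 91.1 in the 4 of 43 to 46. The first boundary was chosen after the values were seen, so levels on its 2 sides were not compared by a test. Subtracting the means of these sets removes part of the variation of Hcrt. Permutation p given with those means subtracted are therefore descriptive.

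Genes of the surrounding pathway gave no call in the 7 comparisons of the 17 libraries, where 0% of all genes were called. The lists hold 112 genes in 19 lists, of which Emx1 was not tested. In mutant against control mice, mean of both states, 7 of 8 genes of orexin receptor signalling (Gnaq, Plcb1, Prkcb and others) were higher and 1 lower, with a median log2 difference of 0.12, and 4 of 6 co-expressed genes were higher with a median of 0.25, beside a median of −0.05 over all genes. Pcsk1, a prohormone convertase, had 0.35 ± 0.15 (unadjusted p = 0.0337, adjusted p = 0.942 in edgeR). The neuron markers gave 7 of 7 higher with a median of 0.18, while the fibroblast genes gave 5 of 5 lower with a median of −0.46 and the endothelial genes 3 of 3 lower with a median of −0.40, and the part of such cells in the differences of the members was not tested. Of 8 arousal target genes 7 were lower, with a median of −0.21, and Hdc, the histamine-synthesising enzyme, had −0.38 ± 0.19. Lateral hypothalamic peptides gave 3 higher and 3 lower, with Pmch at 0.17 ± 0.33 and Nts at 0.20 ± 0.34. The 4 regulators of orexin neuron identity or Hcrt (Foxa2, Ebf2, Bhlhe41 and Nr6a1) had a median of −0.04, the 6 opioid genes −0.02, the 6 pentraxin and AMPA receptor genes 0.09 and the 6 other LIM homeodomain genes 0.08. In control SD against control ZT6 the 7 activity genes, Fos and Arc among them, had a median of −0.08 with 6 of 7 lower, beside −0.02 over all genes.

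The libraries labelled mutant ZT0 differed from control ZT0 in 50.1% of 20763 genes in edgeR over all 22 libraries, 4348 higher and 6063 lower, and 5 of the 6 members were lower. Hcrt had 8, 2 and 0 counts there, against 793, 3458 and 985 in control ZT0 libraries, Pdyn 5, 0 and 1 against 2916, 1812 and 2079, and Hcrtr2 1, 0 and 0 against 360, 272 and 621. Pooled over the 3 libraries, the level in mutant ZT0 was 0.338% of that in control ZT0 for Hcrt (95% exact binomial interval 0.162 to 0.622), 0.156% for Pdyn (0.0573 to 0.34), 2.53% for Nptx2 (1.72 to 3.58), 4.92% for Hcrtr1 (2.67 to 8.33) and 0.141% for Hcrtr2 (0.00357 to 0.789). These intervals cover counting error only. The 0 of mutant ZT0 replicate 3 allows up to 3 counts, 0.961 CPM. In edgeR the adjusted p ran from 0.000109 for Hcrtr2 to 0.00121 for Hcrtr1. Neuron markers were 7 of 7 lower and called in the same libraries, and the 5 fibroblast genes 5 of 5 higher and called, so genotype and tissue content cannot be told apart.

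Lhx9 was the exception. It had 87, 112 and 19 counts in the mutant ZT0 libraries, 5.62, 3.48 and 6.09 CPM scaled by the library total only, against 3.33, 4.33 and 3.14 CPM in control ZT0 libraries. Its pooled level, scaled by the library total, was 121% of that of control ZT0 (101 to 144). This exact binomial interval covers counting error only and not the spread between mice. With TMM factors and mice as replicates, which is an unlike measure, edgeR gave 0.97 ± 0.58 on the log2 scale (adjusted p = 0.169). In mutant ZT6 replicate 3, which also lacks neuron transcripts, Lhx9 had 179 counts, 10.1 CPM, beside 2 of Hcrt, 1 of Pdyn, 8 of Nptx2, 2 of Hcrtr1 and 2 of Hcrtr2. The 6 other LIM homeodomain genes summed to 4.10 to 10.7 CPM in these 4 libraries, against 44.2 to 83.8 in the 17, with 4 of 6 called lower. Of the 6 thalamus and habenula markers, Prkcd (3.08 ± 0.58 on the log2 scale) and Rgs16 (2.81 ± 0.51) were called higher in mutant ZT0 against control ZT0 libraries, Gpr151 (−3.82 ± 1.32) was called lower, and Tcf7l2, Gbx2 and Pou4f1 were not called. Mutant ZT6 replicate 2 had 2 counts of Pdyn and 0 of the other members, where 0 allows up to 408 CPM.

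Related genes followed the same division at ZT0. All 6 lateral hypothalamic peptide and receptor genes were lower in mutant ZT0 libraries and 5 were called, with Pmch at −9.34 ± 1.60 and Nts at −8.00 ± 1.51 on the log2 scale. Of the 6 co-expressed genes 4 were called lower, among them Scg2, a granin of secretory vesicles, at −9.33 ± 1.47 and Slc17a6, the vesicular glutamate transporter, at −9.92 ± 1.61, and Igfbp3, an insulin-like growth factor binding protein that cells outside the brain make too, was called higher at 6.91 ± 1.40. Of the signalling genes Prkcb (−6.62 ± 1.17), Plcb1, Plcb4 and Gnaq were called lower and Plcb3 higher (2.68 ± 0.56).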

How the data were processed

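RNA of the hypothalamus was sequenced from 22 mice. Per the labels' protocols, reads were checked with FastQC, trimmed with Trimmomatic 0.38 and assigned to Ensembl transcripts by kallisto 0.44.0, which tximport summed to genes. The deposited table holds estimated counts that the authors left without normalisation and gave as whole numbers. Kallisto shares reads among transcripts, so counts of overlapping or similar genes are estimates. Of 41461 lines, 5 that repeat a gene ID were dropped. No column of another sample was present.

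From these counts, edgeR 4.0.16 in R 4.3.3 gave TMM factors, a low-count filter (filterByExpr, min.count 10, min.total.count 15) and two-sided quasi-likelihood tests in 1 fit of 5 groups over 17 libraries (21346 genes, all 6 members among them), and over 22 libraries for ZT0 (20763 genes). P-values were adjusted by Benjamini-Hochberg over all genes, and a call is an adjusted p under 0.05. The SE was obtained by dividing the size of the log2 fold change by √F, and intervals are 95% normal ones. Residual spread is that between mice, and mutant ZT6 keeps 2. Correlations used log2(CPM + 0.5) and 100000 resamples (smallest p 1e-05), and their adjustment over all 16748 genes was chosen after seeing the data. The slope on Hcrt is the coefficient of log2 Hcrt in the edgeR model with group. Both procedures were run on simulated data that held no index sets and no differences in tissue content. Those runs do not show how the procedures do where such differences are present. Coordinates are from GENCODE M21 (GRCm38), promoters from RefSeq. Named beyond the members were called list genes, at most 4 a list, the 5 nearest genes of each member, and Pmch; other genes were named after their values were seen. The members and lists were chosen with earlier results of these data known. Alternatives were DESeq2 1.42.0, RLE factors, no filter, other sets of libraries, index numbers as terms, and leaving out each library in turn.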

Additional observations from a re-analysis of the deposited data

Results flagged for a closer look

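Of 18 sets of 4 libraries (a member in a group) looked at for a value far from the rest, 2 were flagged. Chance flags about 1 in 20 only where values are normally distributed. The rule was applied to CPM without logs, and log2 levels were not looked at in this way. Hcrt in control SD replicate 3 was 137.6 TMM-scaled CPM, far above the other 3 control SD libraries (47.8, 33.5 and 47.5), and the same library had the highest Lhx9 and Nts of the 17. Hcrt in control ZT6 replicate 1 was 23.84 TMM-scaled CPM, far below the other 3 control ZT6 libraries (54.6, 58.7 and 58.8), and this library had the lowest Pmch of its group and 1804 CPM over the pituitary genes.

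Lhx9 was present in libraries with few neuron transcripts, which the comparisons of the 17 libraries do not use. It stood at 5.618 CPM in mutant ZT0 replicate 1 and 6.089 in mutant ZT0 replicate 3, against at most 4.328 in control ZT0 libraries, and at 10.07 in mutant ZT6 replicate 3, against at most 3.919 in control ZT6 libraries. These levels are scaled by the library total only. The fibroblast genes summed to 7689, 18830 and 15210 CPM in these 3 libraries, and their part in the Lhx9 level was not tested. No other member passed the level of its control libraries there.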

How the results depend on the processing

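No paired analysis was possible because replicate numbers were given in accession order and pair no mice. The number of members called was 0 in 7 comparisons of 17 libraries and 5 at ZT0. It was unchanged in 82 pairs of a comparison and an alternative setting. The same held in 69 pairs of a comparison and a left-out library. Many of these pairs share a fit, so they are not separate checks. The settings by the 3 index sets, and all those for Pmch and Nts, were chosen after seeing the data. The sign of the Hcrt difference was less stable, and none of these values passed the test. For mutant SD against mutant ZT6 it was 0.35 without the 3 libraries with pituitary transcripts, 0.43 with all 22 libraries and 0.073 without index numbers 1 to 4, and −0.77 to 0.20 without 1 library. The interaction with SD was 0.11 without the pituitary libraries. With the 3 index sets as terms Hcrt was −0.015 for genotype after SD and 0.29 for control ZT6 against ZT0. Without 1 library it was −0.20 to 0.67 for control SD against control ZT6 and −0.71 to 0.85 for control ZT6 against ZT0. Over all members 46 of 444 fold changes reversed under another setting, and 41 of 414 without 1 library.

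Genes following Hcrt numbered 11, and 26 with no low-count filter, 19 with the index run as a term, 33 with no group term, 0 without the pituitary libraries, 0 without index numbers 1 to 4, and 0 to 252 without 1 library. The correlation of Hcrt with Pdyn became 0.042 within index numbers 5 to 18 and 0.12 with index set means subtracted, with Nptx2 0.35 and 0.29, and with Hcrtr1 0.12 and 0.24. With Hcrtr2 it was −0.22 and −0.15 there, −0.25 without the pituitary libraries, −0.10 without the 2 farthest libraries, −0.12 to 0.24 without 1 library, and −0.56 (permutation p = 0.0211) for ratios to the neuron sum. With Lhx9 it was 0.65 without the pituitary libraries (permutation p = 0.0116), 0.67 without the 2 farthest libraries and 0.34 to 0.65 without 1 library. The causes were not tested. Counts of 35 to 224 for Lhx9 and 52 to 384 for Hcrtr1 limit their precision.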
